A study of Rattus norvegicus with 48 samples.

Results

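The 44 liver genes described here were chosen by their measured values as those that were about halved, or lower, in rats given the highest dose of the fungicide myclobutanil. Counts per 1e+06 reads assigned to genes (CPM) were computed for each liver library. A gene was taken when it averaged at least 1 CPM over the 12 libraries from the 400 mg/kg and vehicle groups, when its mean log2(CPM + 0.5) was lower at 400 mg/kg by at least 1, and when its highest 400 mg/kg library lay below its lowest vehicle library. Of 32545 genes in the files, 11315 reached 1 CPM, 86 of those also passed the difference of -1, and 44 of those 86 also had no overlap between the 400 mg/kg and vehicle libraries. A further 180 genes had no overlap and were lower at 400 mg/kg, but by less than 1 on the log2 scale.

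Liver and testis RNA came from adult male Crl:CD(SD) Sprague-Dawley rats, aged 8 to 10 weeks when dosing began and gavaged once a day for 14 days. The groups received myclobutanil at 30, 150 or 400 mg/kg in corn oil, or corn oil alone at 0 mg/kg, and the corn oil volume was 4 ml/kg in all of them. Each dose had 6 libraries per tissue, 48 in all, made from polyadenylated RNA of whole tissue. In such bulk RNA, fewer cells of a type and less RNA per cell cannot be told apart. Whether a number in a sample title stands for an animal is not stated, and the p-values cover the spread of the libraries within a group, which may be technical.

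Myclobutanil is a triazole, a class of fungicides that block a cytochrome P450 step of fungal sterol synthesis. In rodents, triazoles are known to reach the liver, which metabolises them, and to activate the nuclear receptors CAR and PXR, which switch on genes for drug-metabolising enzymes. The testis is studied with these compounds because its steroid hormone synthesis also depends on cytochrome P450 enzymes. The files give Ensembl rat gene IDs without names, and 0 of them could be matched to a symbol here. The 44 genes are therefore described without roles: 2 are given by ID, and the others by their rank in the fall at 400 mg/kg, rank 1 being the largest. Markers of liver and testis cell types could not be looked up for the same reason.

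Reads assigned to genes totalled 31.8 to 49.1 M per liver library and 30.9 to 49.2 M per testis library (M, 1e+06 reads). In liver, depth partly followed dose: every library at 150 and 400 mg/kg had more reads than 5 of the 6 vehicle and 5 of the 6 30 mg/kg libraries, and 1 library of each dose (2408, 2414, 2415 and 2421 in the titles) was deeper than the rest of its group. The labels name no batch and mark no library as an outlier. For testis libraries 2407 and 2408 the title and the dose of 0 give vehicle, but the exposure label gives myclobutanil; both were treated as vehicle.

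Together the 44 genes took a smaller part of the liver's gene reads at each higher dose. Their summed level was 5212 to 6527 CPM in the vehicle livers (median 5893), 4206 to 5587 CPM at 30 mg/kg (median 5061), 2676 to 4033 CPM at 150 mg/kg (median 3340) and 1402 to 2240 CPM at 400 mg/kg (median 1859). The ranges at 150 and 30 mg/kg did not overlap for this sum, while the 30 mg/kg and vehicle ranges did. Most of the sum came from few genes, since 3 of the 44 held 62.7% of the genes' reads in vehicle livers. In testis the same sum was 2046 to 2221 CPM over all 24 libraries, and 13 genes with low or moderate levels in liver, described below, gave 1904 to 2077 CPM of it.

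**Figure D1:**
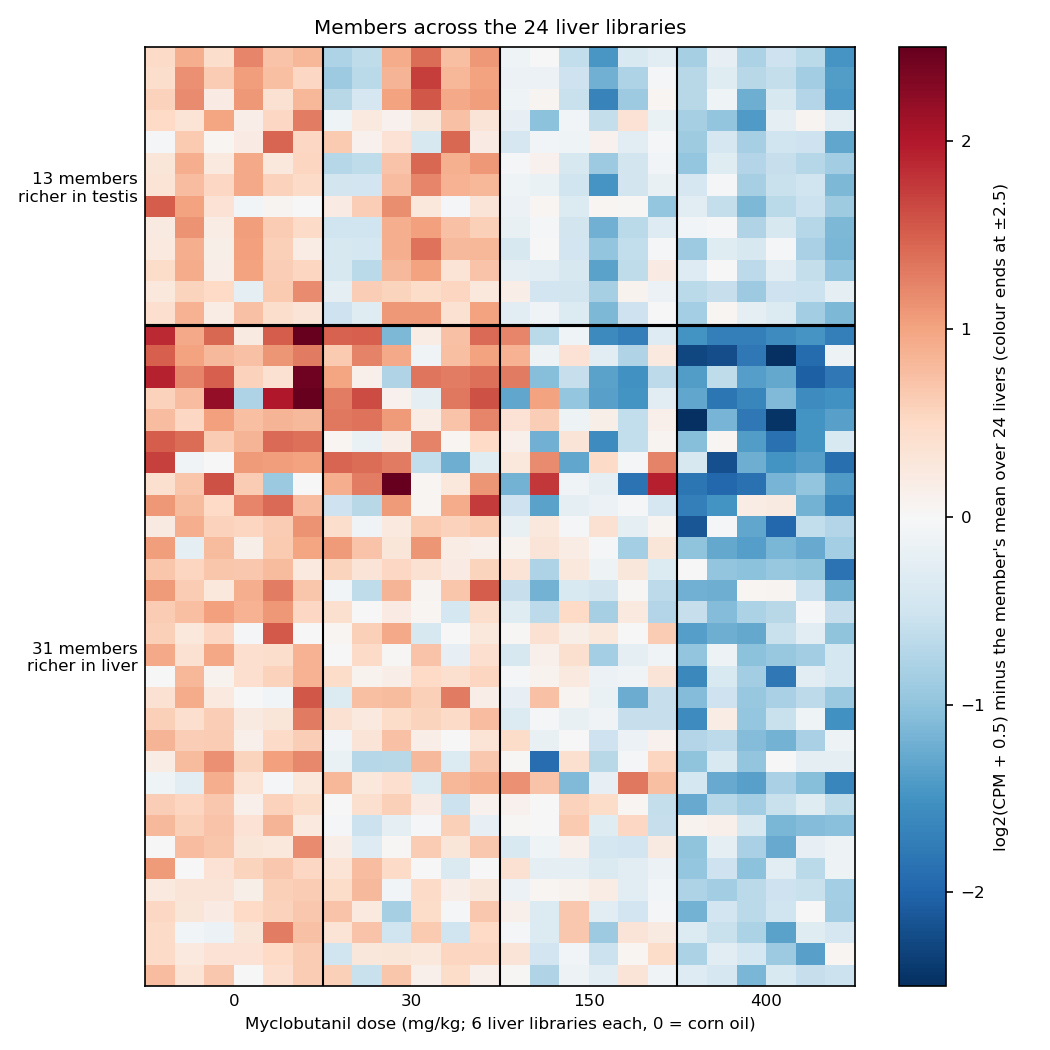
Level of each of the 44 genes (rows) in each of the 24 liver libraries (columns, by dose in mg/kg, 0 being corn oil), as log2(CPM + 0.5) minus the gene's mean over the 24 livers. Rows are split into the 13 genes with more CPM in testis than in 30 mg/kg livers and the 31 with more in liver; the 400 mg/kg columns are low in every row because that is how the genes were chosen, and the 2 leftmost 30 mg/kg columns are low for most of the upper rows.

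The falls at 400 mg/kg are the values that chose the genes and are given as a description. The differences from vehicle ran from -3.06 to -1.03 on the log2(CPM + 0.5) scale, with a median of -1.32, while the median over all 11315 genes at 1 CPM was 0.07. Of the 44 genes, 7 were lower by 2 or more, 7 by 1.5 to 2 and 30 by less than 1.5. As a ratio of mean CPM at 400 mg/kg to vehicle, the range was 0.0131 to 0.492 with a median of 0.340, and 12 genes were below 0.25. The 5 genes just inside the limit of -1 had differences of -1.06 to -1.03, and the 5 that met the other conditions just outside it had -0.99 to -0.96. edgeR's quasi-likelihood test called all 44 lower at 400 mg/kg, against 9.67% of the 13275 genes tested; since the same libraries chose the genes, nothing is read from that count.

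The genes covered a wide range of read numbers. Mean CPM in vehicle livers was under 5 for 16 genes, 5 to 100 for 18 and over 100 for 10, and the highest mean was 1336 CPM. The lowest read number of any of them in a vehicle library was 32. At 400 mg/kg, 8 genes had fewer than 10 reads in at least 1 library, so their ratios rest on few reads.

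The gene of rank 1 was nearly absent at the top dose. It had 0.0254 to 0.122 CPM at 400 mg/kg (median 0.0519, 1 to 5 reads per library), against 1.51 to 10.9 CPM in vehicle livers (median 4.30). At 150 mg/kg it already spread widely, with 0.0251 to 3.52 CPM, and 1 library had a single read; at 30 mg/kg it had 0.291 to 4.36 CPM. The 30 mg/kg and vehicle libraries overlapped, and so did the 150 and 30 mg/kg libraries.

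The 3 genes with the most reads in vehicle livers had ranks 5, 6 and 12 in the fall, and their paths over dose differed. The gene of rank 5 had 885 to 1257 CPM in vehicle livers (median 1073), 705 to 1592 CPM at 30 mg/kg (median 1362), 403 to 951 CPM at 150 mg/kg (median 684) and 85.1 to 275 CPM at 400 mg/kg (median 199.7). Its mean was thus not lower at 30 mg/kg than with vehicle, and the drop lay between 30 and 400 mg/kg. In the gene of rank 6 there were 888 to 1622 CPM in vehicle livers (median 1488), 509 to 1352 CPM at 30 mg/kg (median 615), 191 to 707 CPM at 150 mg/kg (median 484) and 156 to 586 CPM at 400 mg/kg (median 243). Here 5 of the 6 libraries at 30 mg/kg were already below every vehicle library. For the gene of rank 12 the values were 994 to 1457 CPM in vehicle livers (median 1342), 965 to 1235 CPM at 30 mg/kg (median 1144), 488 to 1064 CPM at 150 mg/kg (median 888) and 234 to 829 CPM at 400 mg/kg (median 421). Its 30 mg/kg and vehicle libraries overlapped, and so did its 150 and 30 mg/kg libraries.

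For most of the genes, the level stepped down with dose. Means of log2(CPM + 0.5) were in falling order from vehicle through 30 and 150 to 400 mg/kg for 37 of the 44, against 7.11% of the 11315 genes at 1 CPM; the outer groups of that order chose the genes. Without libraries 2409 and 2410 at 30 mg/kg, which stood apart for some of the genes, 28 of the 44 were in that order. By mean CPM, 9 genes were higher at 30 mg/kg than with vehicle. The median difference from vehicle was -0.25 at 30 mg/kg and -0.75 at 150 mg/kg, beside -0.02 and -0.03 over all genes at 1 CPM. At 30 mg/kg 39 of 44 were below the vehicle mean, and at 150 mg/kg 43 were. These comparisons share the vehicle libraries with the choice of the genes and are descriptions.

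At 150 mg/kg the genes had reached a median of 60.2% of their own difference at 400 mg/kg, with a range of -20.5% to 97.8%. The share was 75% or more for 12 genes, 50 to 75% for 14, 25 to 50% for 14 and under 25% for 4. At 30 mg/kg the median share was 18.4%.

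Among the 7 genes out of dose order on the log2(CPM + 0.5) scale, 5 had a higher mean at 30 mg/kg than with vehicle and 2 a higher mean at 150 than at 30 mg/kg. The gene of rank 8 had 9.16 to 54.3 CPM in vehicle livers (median 25.8), 18.4 to 126.8 CPM at 30 mg/kg (median 36.3), 4.57 to 69.6 CPM at 150 mg/kg (median 15.97) and 4.21 to 8.70 CPM at 400 mg/kg (median 5.54). Its libraries were far apart at every dose below 400 mg/kg. For the gene of rank 25 the values were 39.0 to 90.3 CPM in vehicle livers (median 51.8), 37.3 to 90.5 CPM at 30 mg/kg (median 74.4), 21.9 to 120.2 CPM at 150 mg/kg (median 79.6) and 15.0 to 35.2 CPM at 400 mg/kg (median 21.1). On the log2(CPM + 0.5) scale it was the 1 gene of the 44 with a higher mean at 150 mg/kg than with vehicle, and by mean CPM it and the gene of rank 8 were. Its 150, 30 and vehicle libraries overlapped, as did its 400 and 150 mg/kg libraries.

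**Figure D2:**
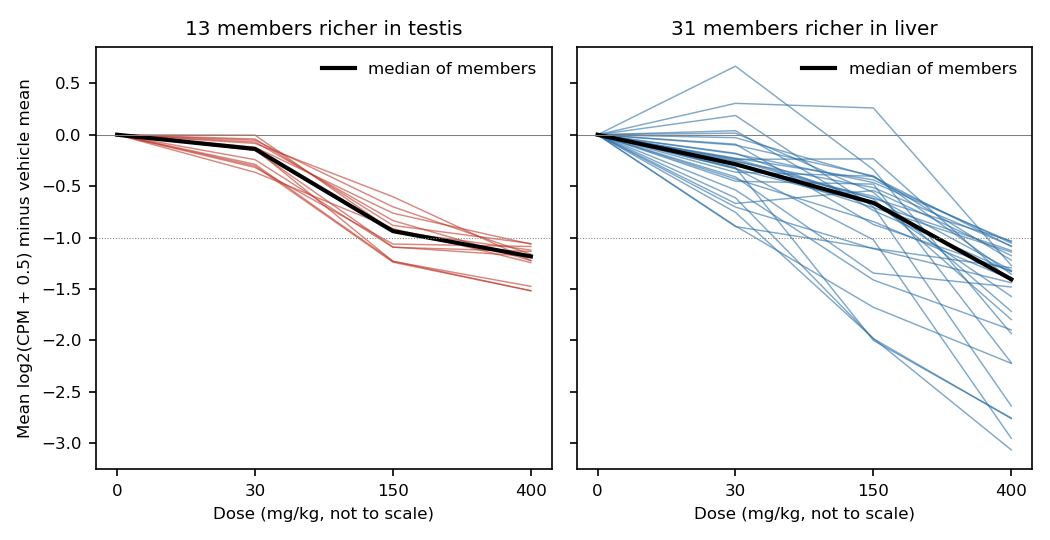
Mean log2(CPM + 0.5) in liver minus the vehicle mean (vertical axis) at 0, 30, 150 and 400 mg/kg (horizontal axis, not to scale), 1 thin line per gene and the median in black, for the 13 genes with more CPM in testis (left) and the 31 with more in liver (right). The dotted line marks the limit of -1 at 400 mg/kg used to choose the genes; the left median reached -0.94 at 150 mg/kg and the right one -0.66.

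The 150 and 30 mg/kg livers took no part in choosing the genes, so the comparison between them is a separate measurement. Fold changes of 150 against 30 mg/kg were negative for 42 of the 44 genes, with a median of -0.70 on the log2 scale, while the median over all 13275 genes tested was -0.00. With edgeR's quasi-likelihood test and Benjamini-Hochberg adjustment over all 13275 genes, 0 of the 44 passed an adjusted p of 0.05, against 0.0377% of all genes called lower; the smallest adjusted p among the 44 was 0.126. At an unadjusted p under 0.05, 22 of the 44 were lower and 0 higher, against 6.92% of all genes lower. DESeq2 called 7 of the 44 lower, against 0.414% of all genes. Most of these 7 belong to 9 genes that varied together between livers, described below, so the counts are not of independent genes. With limma-voom 0 were called, and with edgeR on the 12 libraries of both doses alone 1 was. Without the 30 mg/kg library 2409, edgeR called 2.

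**Figure D3:**
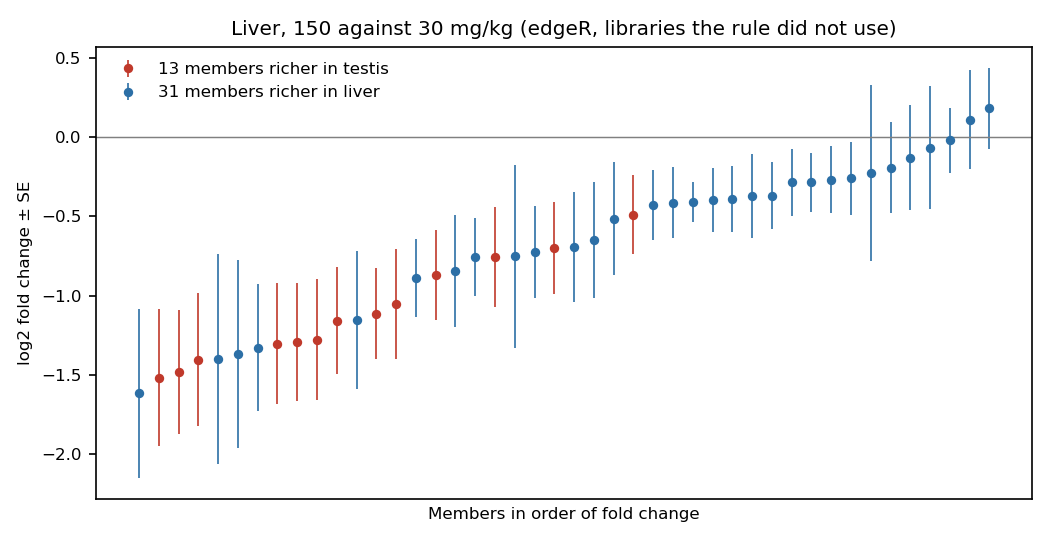
Log2 fold change in liver of 150 against 30 mg/kg from edgeR (vertical axis, points with bars of ± SE) for the 44 genes in order of fold change, with the 13 genes richer in testis in red and the 31 richer in liver in blue. Of the points, 42 lie below 0, and the red points lie mostly in the lower part of the order.

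Single genes show how wide the libraries lay within a dose. The gene of rank 22 was the only one of the 44 whose 150 mg/kg libraries all lay below its 30 mg/kg libraries, against 0.274% of genes at 1 CPM. It had 101.3 to 149.1 CPM at 150 mg/kg (median 127.5), against 180.9 to 259 CPM at 30 mg/kg (median 211), a log2 fold change of -0.76 (SE 0.24, edgeR adjusted p = 0.205). At 400 mg/kg it spread over 51.1 to 173.8 CPM, across the 150 mg/kg range. Rank 5 had a fold change of -0.89 for 150 against 30 mg/kg (SE 0.25, edgeR adjusted p = 0.153), and DESeq2 gave it an adjusted p of 0.0279.

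The spread within groups was wide for these genes. Over the 30 and 150 mg/kg livers, the median SD of log2(CPM + 0.5) within a group was 0.510 for the 44 genes and 0.164 for all genes at 1 CPM. The gap was there at each level of CPM: 0.610 against 0.201 under 10 CPM (21 of the 44), 0.403 against 0.140 from 10 to 100 CPM (15 of the 44) and 0.384 against 0.122 at 100 CPM or more (8 of the 44).

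Depth moved with the doses compared. The 150 mg/kg livers had 39.8 to 46.0 M gene reads and the 30 mg/kg livers 34.4 to 47.4 M, and without the deepest library of each group these ranges were apart. With the depth set as a term of the fit, edgeR called 0 of the 44 in 150 against 30 mg/kg, against 0.113% of all genes lower, and 12 had an unadjusted p under 0.05. The median log2 fold change of the 44 was -0.81 with the term and -0.70 without it. Among the deepest libraries, 1 per dose and so without a test, 39 of the 44 genes were lower in the 150 mg/kg library 2415 than in the 30 mg/kg library 2414, as were 65.3% of all genes at 1 CPM. At 400 mg/kg against vehicle, 17 of the 44 were called with the term, against 1.84% of all genes lower. The same libraries chose the genes, so nothing is read from the 17 beside that share. The median of the 44 was -1.89 with the term and -1.64 without it. Apart from the deepest library of each dose, a depth set held either vehicle and 30 mg/kg livers or 150 and 400 mg/kg livers. With the term, both contrasts thus rest on the deepest libraries, 1 per dose. A call lost with the term can therefore not be told apart from a loss of libraries. The part of depth in these results was not tested.

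In testis the 44 genes ranged from 0 reads to 533 CPM. A mean of at least 1 CPM over the 24 testis libraries was reached by 24 of the 44, which is 54.5%, against 89.4% of all genes at 1 CPM in liver. Means were under 0.1 CPM for 15 of the 44, against 2.62% of those liver genes, and 14 had over 100 times fewer CPM in testis than in 30 mg/kg livers. The gene of rank 5, among those with the most reads in liver, had 0 reads in all 24 testis libraries. The genes of ranks 6 and 12 averaged 0.0780 and 0.217 CPM in testis.

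At the other end, 13 of the 44 genes had more CPM in testis than in 30 mg/kg livers, a share of 29.5% against 51.9% of all genes at 1 CPM in liver. For 8 of the 13 the excess was over 10-fold and for 2 over 100-fold, the highest being 256-fold. The median over the 13 was 90.4 CPM in testis and 2.74 CPM in 30 mg/kg livers, and over the other 31 it was 0.138 CPM in testis and 26.9 CPM in 30 mg/kg livers. CPM compares a gene between tissues as a share of each tissue's reads, and the tissues differ in what the rest of the reads are. The split into 13 and 31 was made after the values were seen, so differences between the sets are given without a test.

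**Figure D4:**
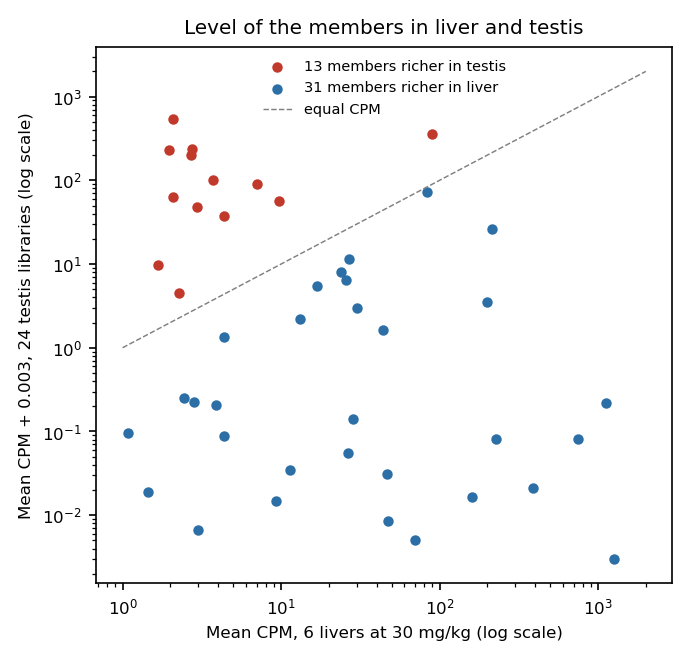
Mean CPM of each of the 44 genes over the 24 testis libraries (vertical axis, log scale, 0.003 added) against its mean CPM over the 6 livers at 30 mg/kg (horizontal axis, log scale), with the 13 genes richer in testis in red and the 31 richer in liver in blue. The dashed line marks equal CPM; 12 of the red points lie below 10 CPM in liver, and the blue points run down to the gene with 0 reads in testis.

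The 13 genes richer in testis were, at 150 mg/kg, nearer to their 400 mg/kg level than the 31 others. Their median share of the 400 mg/kg difference was 81.7% at 150 mg/kg, against 46.2% for the 31, and 8 of the 13 had reached 75% or more, against 4 of the 31. At 30 mg/kg their median difference from vehicle was -0.14, against -0.29 for the 31. In the comparison of 150 with 30 mg/kg, their median log2 fold change was -1.16, against -0.41. An unadjusted p under 0.05 was reached by 12 of the 13, against 10 of the 31, and DESeq2 called 6 of the 13 and 1 of the 31. Those 6 all belong to 9 of the 13 that varied together between livers, described below, so the counts are not of independent genes. Outside the 9, the genes of ranks 26, 27, 32 and 40 had shares of 73.4%, 49.3%, 60.3% and 71.7% at 150 mg/kg. Their fold changes of 150 against 30 mg/kg were -0.49, -0.76, -0.70 and -0.87.

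The most abundant of the 13 in liver, of rank 26, had 27.3 to 77.5 CPM at 400 mg/kg (median 50.7), against 82.1 to 178.9 CPM with vehicle (median 104.9), and its testis mean was 359 CPM. The other 12 were scarce in liver, with vehicle means of 1.81 to 10.7 CPM, and had testis means of 4.53 to 533 CPM. On the log2(CPM + 0.5) scale all 13 had means in falling dose order in liver, and 4 had without libraries 2409 and 2410. By mean CPM, 4 of the 13 were higher at 30 mg/kg than with vehicle.

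Of the 13, 9 varied together from liver to liver. They were picked after the values were seen, as those with a median correlation over 0.9 in the 12 livers at 30 and 150 mg/kg. Each group was centred on its own mean. The median was taken over those of the 13 with under 20 CPM in 30 mg/kg livers, the gene itself left out. Over those 12 libraries the 36 pairwise correlations of the 9 were 0.903 to 0.988, with a median of 0.956. The median over all pairs of the 44 genes was 0.08 and over all pairs of genes at 1 CPM 0.12. Those pairs were not picked by correlation, while the pick in these same libraries makes the values of the 9 high. The libraries, and so the depth and the make-up of each tissue piece, are shared by all genes, and the values are a description.

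The summed level of the 9 genes shows which livers stood apart. It was 23.1 to 39.4 CPM in vehicle livers. At 30 mg/kg, libraries 2409 and 2410 had 10.0 and 10.6 CPM, inside the range at 400 mg/kg, while 2411, 2412, 2413 and 2414 had 35.5, 49.8, 32.6 and 36.3 CPM. Thus 4 livers at 30 mg/kg were above the vehicle median of 27.6 CPM and the other 2 were below every vehicle liver. At 150 mg/kg the sum was 4.28 CPM in library 2418 and 10.0 to 16.2 CPM in the other 5. At 400 mg/kg it was 5.06 to 15.6 CPM, so that the 400 and 150 mg/kg livers overlapped. The median share of the 400 mg/kg difference reached at 150 mg/kg was 83.5% for the 9 genes. Means of log2(CPM + 0.5) were in falling dose order for all 9, but for 0 of the 9 without libraries 2409 and 2410, and by mean CPM 4 of the 9 were higher at 30 mg/kg than with vehicle.

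**Figure D5:**
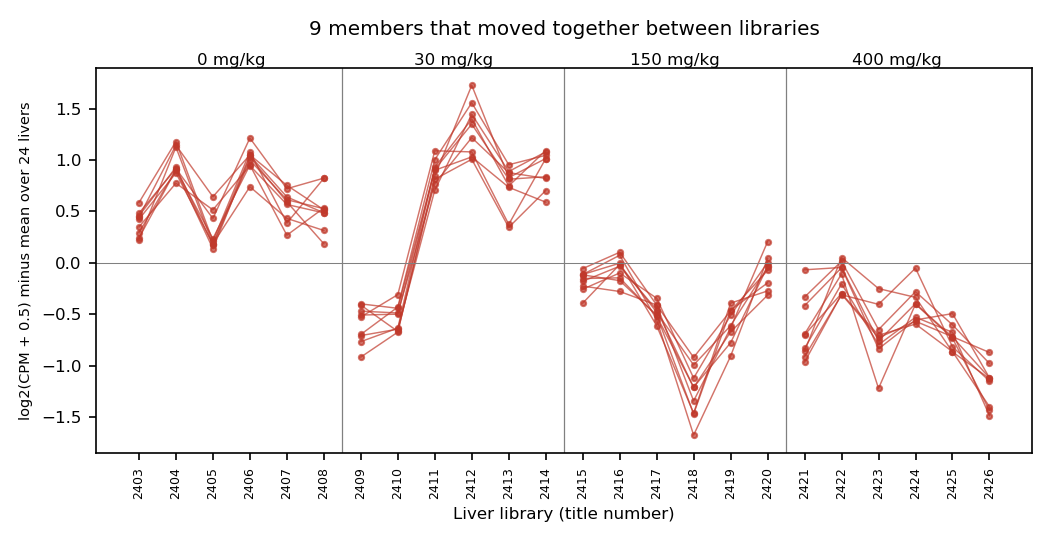
Level of the 9 genes in each of the 24 livers, as log2(CPM + 0.5) minus the gene's mean over the 24 livers (vertical axis), by library number within dose (horizontal axis); each line is a gene. The 9 lines run close together, low in libraries 2409 and 2410 of the 30 mg/kg group and lowest in library 2418 of the 150 mg/kg group.

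In testis the sum of the same 9 genes was 1265 to 1463 CPM over the 24 libraries, with group means of 1355 ± 46.1 CPM with vehicle, 1327 ± 72.1 CPM at 30 mg/kg, 1355 ± 46.6 CPM at 150 mg/kg and 1339 ± 16.7 CPM at 400 mg/kg (SD, n = 6 each). Testis means exceeded those of 30 mg/kg livers by 2.01-fold to 256-fold gene by gene. The sum is carried by the genes with the most testis reads, up to 533 CPM, and 1 of the 9, ENSRNOG00000058539, was lower in testis at 400 mg/kg, as given below.

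Among the 31 genes richer in liver, few moved as closely. The median of their 465 pairwise correlations over the same 12 livers was 0.07, and 2 pairs were above 0.9. These were the genes of ranks 9 and 15, with 0.968, and those of ranks 20 and 33, with 0.940. Next came the genes of ranks 6 and 24 with 0.809, ranks 8 and 18 with 0.806 and ranks 1 and 3 with 0.786. Another 5 pairs were under -0.7, the lowest being ranks 38 and 44 with -0.780.

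Of the 44 genes, 27 passed the filter on low counts in testis, and their median log2 fold change at 400 mg/kg against vehicle was -0.01. By edgeR's quasi-likelihood test with adjustment over all 17261 genes, 2 of the 27 were called at 400 mg/kg, 1 higher and 1 lower, against 3.32% of all genes; 10 had an unadjusted p under 0.05, against 19.7%. DESeq2 called 4 of the 27 at 400 mg/kg, against 6.51% of all genes, and limma-voom 5, against 6.87%. With the depth set as a term edgeR called 0 of the 27, and 0% of all genes. Outside the 4 deepest libraries, that term split the testis libraries by dose, vehicle and 30 mg/kg from 150 and 400 mg/kg, and their depths overlapped. Its effect in testis can therefore not be told apart from that of dose. At 150 mg/kg edgeR without the term called 0 against 0.0232% of all genes, with 0 at an unadjusted p under 0.05 against 6.26%. At 30 mg/kg it called 0 against 0.00579%, with 5 at an unadjusted p under 0.05 against 10.5%. DESeq2 and limma-voom called 0 of them at 150 and at 30 mg/kg. The fold changes of the 13 genes richer in testis lay between -0.29 and 0.15 at 400 mg/kg. Among the 14 others tested they lay between -0.28 and 1.18; the highest was that of the gene of rank 12, at 0.217 CPM in testis (SE 0.34, edgeR adjusted p = 0.0546).

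ENSRNOG00000014426 had rank 4 in the liver fall and was higher in testis at the top dose. In liver it had 1.78 to 3.25 CPM at 400 mg/kg (median 2.26), against 4.18 to 57.4 CPM with vehicle (median 22.2). Between these, it had 6.26 to 24.5 CPM at 30 mg/kg (median 19.2) and 2.36 to 15.6 CPM at 150 mg/kg (median 3.15). The vehicle livers of this gene differed among themselves by more than 10-fold. The fold change of 150 against 30 mg/kg was -1.62 (SE 0.53, edgeR adjusted p = 0.217).

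In testis ENSRNOG00000014426 had 5.87, 5.71, 6.77, 5.93, 6.90 and 8.03 CPM at 400 mg/kg, against 4.61, 4.38, 4.84, 4.61, 4.11 and 4.81 CPM with vehicle. All 6 libraries at 400 mg/kg lay above all 6 vehicle libraries. The log2 fold change was 0.52 (SE 0.09, edgeR adjusted p = 0.00411). With the depth set as a term of the fit, where edgeR called no gene of the 17261, it was 0.29 and the adjusted p 0.715. At 150 and 30 mg/kg the fold changes against vehicle were 0.16 (edgeR adjusted p = 0.828) and 0.20 (edgeR adjusted p = 0.432), and the libraries overlapped.

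ENSRNOG00000058539 had rank 13 in the liver fall, belonged to the 9 genes above and was lower in testis at the top dose. In liver it had 0.441 to 1.78 CPM at 400 mg/kg (median 1.08), against 3.05 to 5.60 CPM with vehicle (median 4.00). At 30 mg/kg it had 1.05 and 1.20 CPM in libraries 2409 and 2410 and 3.92 to 6.43 CPM in the other 4, and at 150 mg/kg 0.456 to 2.13 CPM. The fold change of 150 against 30 mg/kg was -1.30 (SE 0.38, edgeR adjusted p = 0.171), and DESeq2 gave an adjusted p of 0.0461.

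In testis ENSRNOG00000058539 was abundant, with 82.0, 92.3, 78.9, 86.4, 93.5 and 93.9 CPM at 400 mg/kg, against 109.7, 107.9, 103.4, 104.5, 101.6 and 116.0 CPM with vehicle. All 6 libraries at 400 mg/kg lay below all 6 vehicle libraries. The log2 fold change was -0.29 (SE 0.06, edgeR adjusted p = 0.0164). The call ended with the depth set as a term (-0.25, edgeR adjusted p = 0.670), without the 4 deepest libraries (-0.24, edgeR adjusted p = 0.0695), without vehicle libraries 2407 and 2408 (-0.27, edgeR adjusted p = 0.0579) and without the 400 mg/kg library 2423 (-0.26, edgeR adjusted p = 0.0537). Its fold change in liver at 400 mg/kg was thus of the same sign as that in testis and larger, -1.52 on the log2(CPM + 0.5) scale, which is the value that chose it.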

How the data were processed

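As deposited, each library has 1 file of raw read counts by Ensembl gene ID. The submitters' processing notes name CASAVA 1.8, HISAT2 and HTSeq 0.6.1. Per the labels' protocols, libraries were stranded mRNA libraries. No build or strand option is given in the sources used here. The 5 lines of no gene were left out; they held 34.9% to 36.9% of a testis file's reads and 39.8% to 46.1% of a liver file's. Among them are reads that align to several places, which makes values of genes with near-identical copies uncertain. In liver the share held by these lines differed with dose. It was 39.8% to 42.6% with vehicle and 43.3% to 46.1% at 400 mg/kg, without overlap. At 30 mg/kg it was 40.2% to 43.0%, and at 150 mg/kg 42.2% to 44.7%. The part of this share in the falls was not tested.

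CPM was computed over the gene rows. Tests used edgeR 4.0.16 in R 4.3.3 on all 24 libraries of a tissue: filterByExpr, TMM scaling, robust quasi-likelihood dispersion, a mean for each dose, 2-sided tests and Benjamini-Hochberg adjustment over all genes tested, with a call at an adjusted p under 0.05. The steps were tested on simulated counts. Each SE printed or drawn is the absolute log2 fold change divided by the square root of the edgeR test's F statistic. Alternatives were DESeq2 1.42.0, limma-voom 3.58.1, RLE size factors, other filters, fewer libraries, each library left out, and the depth set as a term. The limma-voom fit gave each library a quality weight. The depth sets followed depth in liver and were applied unchanged to testis. Libraries 2408, 2414, 2415 and 2421 formed a set. The remaining vehicle and 30 mg/kg libraries formed another, and the remaining 150 and 400 mg/kg libraries the last. In testis the depths of the latter sets overlapped, so there the sets are a split by dose rather than by depth. Correlations used log2(CPM + 0.5) centred within the 30 and the 150 mg/kg group.

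The genes, lists and tests were chosen with earlier results of these data known. Genes were to be named where they had a symbol and were among the 25 largest falls, the gene and marker lists, the genes called at 150 against 30 mg/kg or in testis, those highest in vehicle liver or in testis, or those nearest the limit. Since 0 of 32545 IDs matched the 47357 genes of the RefSeq table, the gene and marker lists could not be applied. The 2 genes called in testis are given by ID, and the other genes described were chosen after their values were seen.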

Additional observations from a re-analysis of the deposited data

Results flagged for a closer look

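ENSRNOG00000014426 had 15.6 CPM in the 150 mg/kg liver 2416, far from the next highest library of that group at 6.15 CPM. It was the 1 flag among 24 groups of 6 libraries looked at in this way, where chance flags about 1 in 20.

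The same gene moved in opposite directions in the tissues at 400 mg/kg. All 6 treated livers lay below the vehicle mean, which is how the gene was chosen, and all 6 treated testes lay above it, with a log2 fold change in testis of 0.52. The difference between the tissues was not tested.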

How the results depend on the processing

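The number of genes that met the definition was 44, and 26 with a mean of at least 5 CPM; it was 36 with a pseudocount of 1, 55 with 0.1, 53 with TMM scaling and 43 to 61 when each library was left out. At 150 against 30 mg/kg in liver, edgeR called 0, DESeq2 7 and the 12 libraries alone 1; leaving out each library gave 0 to 2. At 400 mg/kg against vehicle in liver, 44 were called in each fit but 1, the depth set as a term, which gave 17. Leaving out each library gave 44 to 44, beside 2065 to 2557 of all genes called in either direction. That contrast chose the genes, so nothing is read from these counts. In testis at 400 mg/kg, 2 were called, 4 with DESeq2, 5 with limma-voom, 0 with the depth set as a term (a fit that called 0 of all 17261 genes), 1 without the 4 deepest libraries (an alternative chosen after seeing the data), 1 without vehicle 2407 and 2408, and 1 to 4 when each library was left out (1 without 400 mg/kg 2423, 4 without 2422). The cause of these changes was not tested, and outside the 4 deepest libraries the depth set cannot be told apart from the dose split. Over all genes tested in testis at 400 mg/kg, edgeR called 3.32%, DESeq2 6.51% and limma-voom 6.87%. In testis at 150 and 30 mg/kg every fit run called 0. Over the alternatives, 28 to 38 genes were in falling dose order (28 without 30 mg/kg libraries 2409 and 2410, chosen after seeing the data) and 26 to 29 had reached 50% at 150 mg/kg. At least 1 CPM in testis was reached by 24 genes in every alternative run with that minimum, and 5 CPM by 18. No paired analysis was possible because the dose groups compared within a tissue share no number in the titles. For the 8 genes under 10 reads in a 400 mg/kg liver, depth limits the size of the fall.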
